A study of Mus musculus with 13 samples.

Results

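Resident alveolar macrophages are the phagocytes that live on the air side of the alveoli, where they take up and break down surfactant lipid. Their identity depends on GM-CSF and TGF-β signals, which induce the nuclear receptor PPARγ, and PPARγ in turn drives genes of lipid uptake and transport. After alveolar injury, macrophages that arise from blood monocytes enter the same niche and can take on part of this programme. The genes described here are 9 that are widely used to recognise the resident cells, Siglecf, Marco, Itgax, Pparg, Fabp4, Fabp1, Cd36, Krt79 and Ear2, taken by symbol from a table of 54513 gene symbols. All 9 were in the table and all 9 passed the filter on low counts.

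Lungs of C57Bl/6 mice, males aged 7 to 8 weeks, were taken at day 21 and kept as formalin-fixed tissue in paraffin. The mice had received bleomycin, a DNA-damaging drug used to model lung fibrosis, or saline. Total RNA from a 10 µm coronal section (8 ng per library) was sequenced in 5 saline libraries of batch 1, 4 bleomycin libraries of batch 1 (replicates 5 to 8) and 4 bleomycin libraries of batch 2 (replicates 1 to 4). No saline library belongs to batch 2, so bleomycin was compared with saline through batch 1, and batch 2 bleomycin is given beside it. The labels number the samples but do not state that each came from a separate animal, so the p-values reflect library-to-library spread, which may be technical. No genotype, dose or route is given in the sources used here.

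The labels of bleomycin replicate 8 conflict: its title reads control, whereas treatment and library name both read bleomycin, so it stayed in the bleomycin group. It held 77.8 CPM of Itgax and 0.57 CPM of Krt79, inside the range of the other bleomycin libraries (71.1 to 129 and 0.49 to 1.76 CPM) and outside that of saline (17.5 to 27.3 and 3.46 to 7.66 CPM). Its Marco, at 30.3 CPM, lay above saline (3.68 to 9.92 CPM) and above the other bleomycin libraries (3.42 to 29.7 CPM). Itgax and Krt79 are tested below with replicate 8 counted as bleomycin, so their levels are no independent check of its label. CPM are counts relative to the library total, scaled by TMM. Total counts were 21727502 to 28885129 in batch 1 bleomycin, 9527580 to 26043735 in saline and 6337147 to 12982422 in batch 2 bleomycin, so low genes are measured least precisely in batch 2. These are sections of whole lung, and fewer cells of a type cannot be told apart from less RNA per cell.

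The comparison asks how the resident alveolar macrophage genes stand in the lung at day 21, and the 9 genes did not move together. Itgax, the integrin chain CD11c, rose 3.90-fold. Krt79, a keratin that these cells express among leukocytes, fell 7.65-fold, Fabp1, a fatty acid binding protein, fell 9.25-fold, and Cd36, a scavenger receptor for lipids, fell 1.25-fold. Siglecf, Marco, Pparg, Fabp4 and Ear2 did not pass the threshold of Benjamini-Hochberg adjusted p under 0.05 in edgeR's quasi-likelihood test over 20468 genes. With 1 of 9 higher and 3 of 9 lower, the background is 17.5% of all tested genes called higher and 13.4% called lower (30.9% in either direction). The same shares are the background of the marker list counts below. The median log2 change of the 9 genes was -0.32, against 0.03 over all tested genes. No member passed between batch 2 and batch 1 bleomycin by edgeR, DESeq2 or limma-voom, where 1.68% of all genes did by edgeR (0.547% higher and 1.13% lower), and 2 members had an unadjusted p under 0.05 there (Krt79 and Fabp1). With bleomycin replicate 8 placed in saline, as its title reads, Krt79 passed (-2.62, adjusted p = 0.0396), while Itgax (1.48, adjusted p = 0.0647), Fabp1 (-2.82, adjusted p = 0.141) and Cd36 (-0.16, adjusted p = 0.524) did not.

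**Figure D1:**
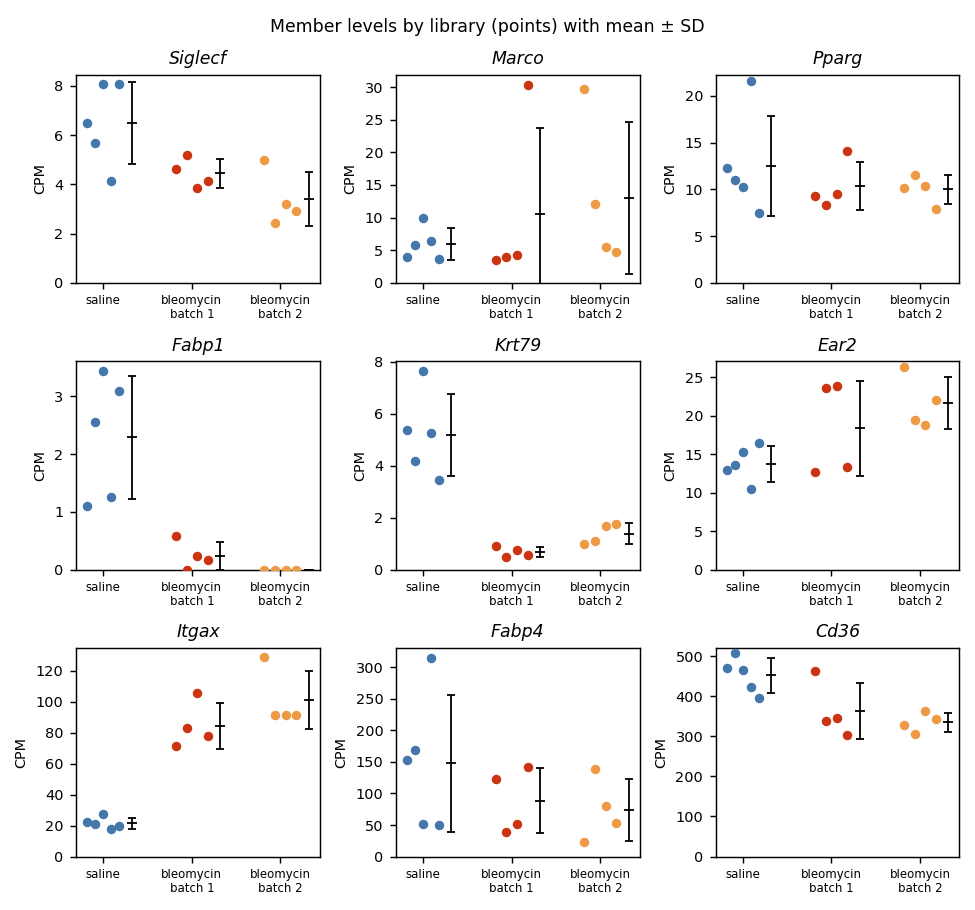
Level of each gene in CPM by library (points), in 5 saline (blue), 4 batch 1 bleomycin (red) and 4 batch 2 bleomycin (orange) libraries. Bars give mean ± SD, and a bar that would run below 0 is cut at the axis. Itgax stands above saline and Krt79 and Fabp1 below it in all 8 bleomycin libraries, while the other panels overlap.

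The genes that fell most and the gene that rose are shown with the bases just before their start sites, to set the letters before 2 genes that fell beside those before the gene that rose. The sequences are RefSeq promoters of build GRCm38.p6, not the mm39 build of the counts, 250 bases long and 5′ to 3′ on the gene's strand. Of the 9 genes 8 have an entry in that table, all but Fabp4, and Pparg has 3 entries. Capitals mark matches, on either strand, to the PPAR response element (AGGNCA, any 1 base, AGGNCA again), the PU.1 core GAGGAA and the TATA box TATAAA, which do not overlap each other here. The nuclear receptor site AGGTCA, which can lie inside the PPAR element, was searched as well and is not marked.
Fabp1 (chr6:71199629-71199878, + strand): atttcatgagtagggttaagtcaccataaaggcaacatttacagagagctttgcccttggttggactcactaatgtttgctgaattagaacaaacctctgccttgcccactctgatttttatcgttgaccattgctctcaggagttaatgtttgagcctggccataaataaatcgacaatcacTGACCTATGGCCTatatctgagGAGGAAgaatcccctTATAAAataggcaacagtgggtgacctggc
Krt79 (chr15:101940325-101940574, - strand): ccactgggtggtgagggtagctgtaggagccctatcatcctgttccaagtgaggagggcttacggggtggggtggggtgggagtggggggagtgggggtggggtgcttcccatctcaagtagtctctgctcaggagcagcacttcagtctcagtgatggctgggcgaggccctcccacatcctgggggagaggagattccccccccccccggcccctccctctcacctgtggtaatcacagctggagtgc
Itgax (chr7:128129300-128129549, + strand): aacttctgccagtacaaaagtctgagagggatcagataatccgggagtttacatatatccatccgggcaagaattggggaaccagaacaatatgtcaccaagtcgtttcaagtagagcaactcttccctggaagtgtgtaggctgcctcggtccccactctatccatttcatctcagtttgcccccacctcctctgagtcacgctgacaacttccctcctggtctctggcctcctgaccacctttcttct

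The Fabp1 window held a match to the PPAR element on the reverse strand, 67 to 55 bases before the start, a PU.1 core at 45 to 40 bases and a TATA box at 30 to 25 bases. Over 32851 promoter windows of the same length, 0.338% held the PPAR element, 23.3% the PU.1 core, 12.4% the TATA box and 14.0% AGGTCA. Among the windows of the 8 genes only that of Fabp1 matched the PPAR element, and Fabp4 could not be searched. The PU.1 core also occurred before Marco, Pparg and Siglecf, the TATA box before Pparg, and AGGTCA before Fabp1, Cd36 and Pparg. None of the matches of Pparg lay in every window of that gene. Krt79, Itgax and Ear2 windows held none of the 4. A match is a description of the letters, not a bound site.

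The surface receptors come first. Siglecf, a lectin that binds sialic acid and the usual antibody marker that separates resident alveolar macrophages from newly arrived ones, stood at 6.48, 5.68, 8.06, 4.15 and 8.09 CPM in saline replicates 1 to 5. It was at 4.61, 5.21, 3.86 and 4.14 CPM in batch 1 bleomycin replicates 5 to 8, and at 4.98, 2.45, 3.21 and 2.93 CPM in batch 2 replicates 1 to 4. Most bleomycin libraries lay under most saline libraries, but saline replicate 4 lay inside the bleomycin range. The log2 change was -0.55 (SE 0.25, 95% interval -1.08 to -0.01, adjusted p = 0.117). It passed without saline replicate 4 (-0.71, adjusted p = 0.0483), and the 12 other left-out libraries did not bring it past the threshold (adjusted p up to 0.239).

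Marco, a scavenger receptor for particles and bacteria, was at 4.01, 5.80, 9.92, 6.41 and 3.68 CPM in saline. In batch 1 bleomycin it was at 3.42, 3.96 and 4.33 CPM in replicates 5 to 7 and at 30.3 CPM in replicate 8, and in batch 2 at 29.7, 12.1, 5.49 and 4.69 CPM. Replicate 8 and batch 2 replicates 1 and 2 lay above every saline library, 4 bleomycin libraries lay within the saline range, and replicate 5 lay just below it. The log2 change of 0.80 (SE 0.76, adjusted p = 0.464) rested on replicate 8 and turned to -0.65 (adjusted p = 0.41) without it.

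Itgax encodes CD11c, which pairs with the β2 integrin chain and is carried by alveolar macrophages and by dendritic cells. Its levels were 22.0, 21.0, 27.3, 17.5 and 20.0 CPM in saline, 71.1, 82.9, 106 and 77.8 CPM in batch 1 bleomycin, and 129, 91.2, 91.5 and 91.5 CPM in batch 2. The groups were far apart, with the lowest bleomycin library above the highest saline library. The log2 change was 1.96 (SE 0.15, adjusted p = 7.14e-07), and batch 2 differed from batch 1 by 0.25 (SE 0.15, adjusted p = 0.472). Groups did not overlap in batch 1 for 25.3% of all tested genes, and all 8 bleomycin libraries stood apart from saline for 15.9%, as they did for Itgax, Krt79 and Fabp1.

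Pparg encodes the nuclear receptor that sets the lipid programme of these cells and that fat cells and other lung cells express as well. It stood at 12.2, 11.0, 10.3, 21.6 and 7.43 CPM in saline, at 9.27, 8.37, 9.53 and 14.1 CPM in batch 1 bleomycin and at 10.1, 11.5, 10.4 and 7.91 CPM in batch 2. The 3 groups overlapped throughout, and saline replicate 4 was the highest library of all. The log2 change was -0.28 (SE 0.26, adjusted p = 0.443), with a 95% interval from -0.82 to 0.26 that leaves room for a change in either direction.

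The 3 genes of fatty acid transport, known targets of PPAR receptors in one tissue or another, differed from each other. Fabp1, the liver-type fatty acid binding protein, was counted 26, 22, 94, 20 and 42 times in the saline libraries (1.11, 2.55, 3.43, 1.26 and 3.09 CPM). Batch 1 bleomycin libraries held 14, 0, 6 and 4 counts (0.58, 0, 0.24 and 0.16 CPM), and all 4 batch 2 libraries held 0. No bleomycin library reached the lowest saline level. Fabp1 changed by -3.21 on the log2 scale (SE 0.80, adjusted p = 0.00833). In batch 2, where a count of 0 allows up to 3 independent counts per library (0.25 to 0.50 CPM), the level was at least 4.59-fold lower than the saline mean. This bound covers only the counting error of independent counts. It would be smaller if the counts are of reads in pairs, a possibility described under processing. The hepatocyte and enterocyte list, tissues in which Fabp1 is abundant, summed to 1.32 to 3.13 CPM in saline, 0.85 to 3.38 in batch 1 and 1.7 to 2.7 in batch 2 bleomycin. Its defining genes Alb, Apoa1 and Fabp2 had at most 8, 4 and 2 counts in any library. It had 1 of 8 genes tested and 0 called (0 at an unadjusted p under 0.05, and 0 by DESeq2 and by limma-voom).

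Fabp4, the fatty acid binding protein of fat cells, capillary endothelium and macrophages, spread widely in each group. Saline libraries held 153, 169, 51.1, 316 and 50.0 CPM, batch 1 bleomycin 122, 38.7, 52.3 and 142 CPM, and batch 2 bleomycin 22.6, 139, 80.2 and 53.0 CPM. High and low libraries occurred in every group. The estimate was -0.73 on the log2 scale (SE 0.69, 95% interval -2.26 to 0.80, adjusted p = 0.461). The summed adipocyte list (8 genes such as Adipoq and Plin1) was lowest in batch 2 replicate 1 (143 CPM), the library with the lowest Fabp4, and highest in saline replicate 4 (611 CPM), the library with the highest. It ranged from 236 to 611 CPM in saline, 183 to 456 in batch 1 bleomycin and 143 to 391 in batch 2, with 0 of 8 genes called by edgeR, DESeq2 or limma-voom and 0 at an unadjusted p under 0.05. Its part in the Fabp4 levels was not tested.

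Cd36, which takes up fatty acids and oxidised lipoprotein and is abundant in capillary endothelium, held 469, 509, 465, 424 and 396 CPM in saline. It held 464, 339, 345 and 303 CPM in batch 1 bleomycin and 327, 306, 363 and 342 CPM in batch 2. Replicate 5 of batch 1 bleomycin lay among the saline libraries, and the other 7 bleomycin libraries lay below all of them. For Cd36 the log2 change was -0.32 (SE 0.12, adjusted p = 0.0475), close to the threshold. The call ended with 9 of the 13 libraries left out in turn (adjusted p up to 0.118): bleomycin replicates 1, 2, 4, 6, 7 and 8 and saline replicates 1, 2 and 3. It also ended in batch 1 alone (-0.36, adjusted p = 0.0565). In the capillary endothelium list 7 of 12 genes fell and 1 rose (median -0.34), the latter Aplnr, an apelin receptor, a call lost without bleomycin replicate 5 or 7 or saline replicate 3, 4 or 5. Those that fell included the phosphatase Ptprb (-0.77, SE 0.10) and the angiopoietin receptor Tek (-0.80, SE 0.11). The list summed to 2801 to 3421 CPM in saline, 1805 to 2327 in batch 1 and 1969 to 2199 in batch 2 bleomycin. Counts of Cd36 per count of Cdh5, the endothelial cadherin, were 1.00 ± 0.11 in saline (SD, n = 5), 0.89 ± 0.11 in batch 1 bleomycin (n = 4) and 0.79 ± 0.03 in batch 2 (n = 4). The part of endothelium in the Cd36 change was not tested.

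**Figure D2:**
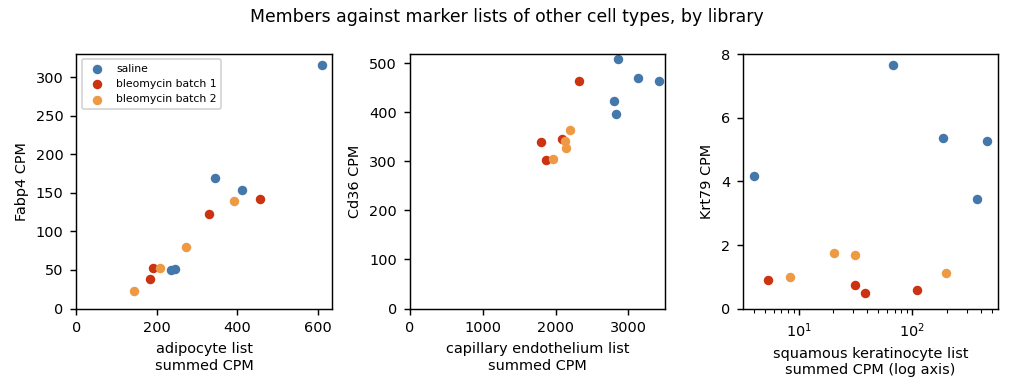
Each point is a library, coloured by group as in the key. Vertical axes give Fabp4, Cd36 and Krt79 in CPM, and horizontal axes the summed CPM of the adipocyte, capillary endothelium and squamous keratinocyte lists (the last on a log axis). Fabp4 is lowest and highest in the libraries where the adipocyte list is lowest (143) and highest (611). Krt79 is 4.17 CPM in the saline library with the lowest keratinocyte sum (4.06) and 5.28 CPM in the one with the highest (453).

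Krt79 is a keratin of the skin that alveolar macrophages carry as well. Its saline levels were 5.37, 4.17, 7.66, 5.28 and 3.46 CPM. In batch 1 bleomycin it was at 0.91, 0.49, 0.75 and 0.57 CPM and in batch 2 at 1.00, 1.12, 1.69 and 1.76 CPM. Every bleomycin library lay below every saline library, and every batch 2 library above every batch 1 bleomycin library, a separation that 7.58% of all tested genes share. The log2 change from saline was -2.94 (SE 0.35, adjusted p = 2.02e-05), and batch 2 stood 1.04 above batch 1 (SE 0.37, adjusted p = 0.181). The keratinocyte list varied within groups, from 4.06 to 453 CPM in saline, 5.31 to 109 in batch 1 and 8.30 to 196 in batch 2 bleomycin. Of its 6 tested genes 0 passed (1 at an unadjusted p under 0.05, 1 by DESeq2 and 0 by limma-voom). All 6 estimates were nevertheless below 0 (median log2 change -2.15), from -2.96 for Dsg1a to -0.42 for Krt14. Their SE were wide, from 0.57 for Krt10 to 1.88 for Lor. The lowest keratinocyte sum of all libraries was in saline replicate 2, which held 4.17 CPM of Krt79, and the highest was in saline replicate 4, which held 5.28 CPM. The part of keratinocytes in the Krt79 change was not tested.

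Ear2, a secreted ribonuclease of eosinophils, alveolar macrophages and patrolling monocytes, was at 12.9, 13.6, 15.2, 10.4 and 16.5 CPM in saline. It was at 12.7, 23.6, 23.8 and 13.4 CPM in batch 1 bleomycin and at 26.2, 19.4, 18.8 and 22.0 CPM in batch 2. In batch 1 a pair of libraries lay within saline and a pair above it, and all batch 2 libraries lay above saline. Ear2 had a log2 change of 0.42 (SE 0.20, adjusted p = 0.128), and it passed without bleomycin replicate 5 (0.56, adjusted p = 0.0387). Its paralogue Ear1 went the other way, from 4.14 ± 1.45 CPM (SD, n = 5) to 0.87 ± 0.53 CPM (n = 4), a log2 change of -2.25 (SE 0.51, adjusted p = 0.00358), with 1.45 ± 1.05 CPM in batch 2. Ear genes are near-identical copies whose reads the counting could split, so both values are uncertain. The eosinophil list summed to 3.52 to 7.89 CPM in saline, 7.95 to 15.2 in batch 1 and 9.08 to 10.9 in batch 2 bleomycin. Of its granule genes, Epx was at 0 in 12 of 13 libraries (at most 2 counts). Prg2 was at 0 in 3 of 5 saline libraries (at most 4 counts), had 2 to 32 counts in the 4 batch 1 bleomycin libraries and was at 0 in 2 of 4 batch 2 libraries (at most 5 counts). Prg3 was at 0 in all 5 saline libraries and in 4 of 8 bleomycin libraries (at most 10 counts). Of 4 tested genes 1, the lectin Siglece, which other leukocytes express as well, rose (1.35, SE 0.31, adjusted p = 0.00343). The share called higher among all tested genes was 17.5%. Ccr3 (0.42, SE 0.67), Il5ra (0.99, SE 0.65) and Alox15 (0.75, SE 0.49) did not pass. The part of eosinophils in the Siglecf and Ear2 levels was not tested.

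**Figure D3:**
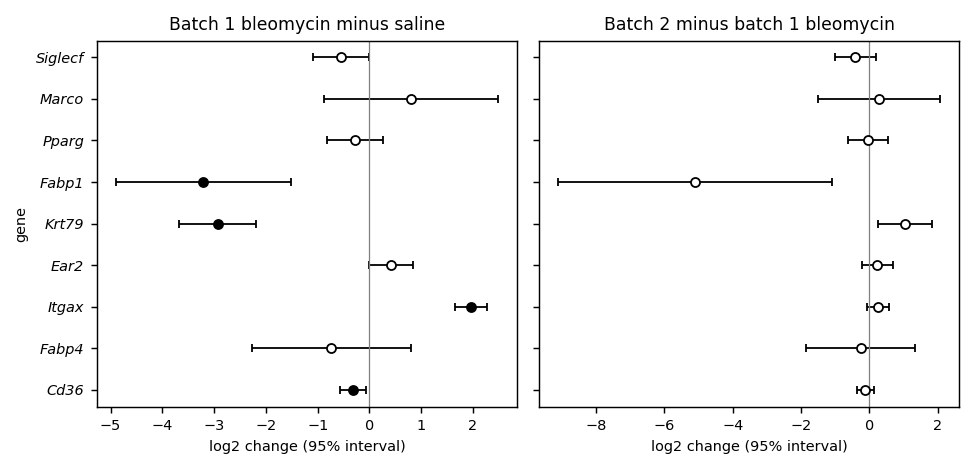
Log2 change with 95% interval for each gene, batch 1 bleomycin minus saline on the left and batch 2 minus batch 1 bleomycin on the right; filled circles passed at an adjusted p under 0.05. On the left 1 gene (Itgax) is filled above 0 and 3 (Fabp1, Krt79 and Cd36) below it, and on the right none is filled.

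Levels of different genes were compared only per kilobase of exon. Cd36 was the most abundant of the 9 in each group, at 126 ± 12.1 CPM per kilobase in saline (SD, n = 5), 101 ± 19.5 in batch 1 bleomycin (n = 4) and 93.2 ± 6.74 in batch 2 (n = 4). In saline Fabp4 (32.9 ± 24.3) and Ear2 (19.1 ± 3.21) followed, then Itgax (4.49 ± 0.75), Pparg (4.23 ± 1.82), Fabp1 (4.14 ± 1.91), Marco (3.10 ± 1.30), Siglecf (2.33 ± 0.60) and Krt79 (1.09 ± 0.34). The mean ± SD ranges of neighbours in that order overlapped from Fabp4 to Ear2 and from Itgax to Siglecf. In batch 1 bleomycin Itgax (17.6 ± 3.12) stood beside Fabp4 (19.8 ± 11.3) and Ear2 (25.5 ± 8.57), while Fabp1 (0.44 ± 0.44) and Krt79 (0.14 ± 0.04) were last. The mean ± SD ranges of those first 3 overlapped each other, as did those of the last 2. In batch 2 Ear2 was followed, outside its spread, by Itgax (21.0 ± 3.90) and Fabp4 (16.4 ± 11.1), the latter pair within each other's spread, and Fabp1 was at 0 and last, after Krt79 (0.29 ± 0.08).

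Ratios of counts within a library do not depend on the scaling between libraries, and they are given as a description because the pairs were chosen with the changes known. Counts of Itgax per count of Siglecf were 3.39, 3.69, 3.38, 4.23 and 2.47 in saline, 15.4, 15.9, 27.4 and 18.8 in batch 1 bleomycin and 25.9, 37.2, 28.5 and 31.2 in batch 2. The ranges did not overlap. Against Cd68, a lysosomal protein of macrophages in general that rose by 1.75 (SE 0.16), Itgax was at 1.51 ± 0.13 in saline, 1.81 ± 0.45 in batch 1 and 2.15 ± 0.07 in batch 2 bleomycin. Siglecf per count of Cd68 was 0.46 ± 0.12 in saline, 0.096 ± 0.026 in batch 1 and 0.071 ± 0.010 in batch 2 bleomycin. Krt79 per count of Cd68 was 0.36 ± 0.08 in saline, 0.015 ± 0.008 in batch 1 and 0.031 ± 0.012 in batch 2 bleomycin. Both sets of bleomycin libraries lay apart from saline in these last 2 ratios.

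**Figure D4:**
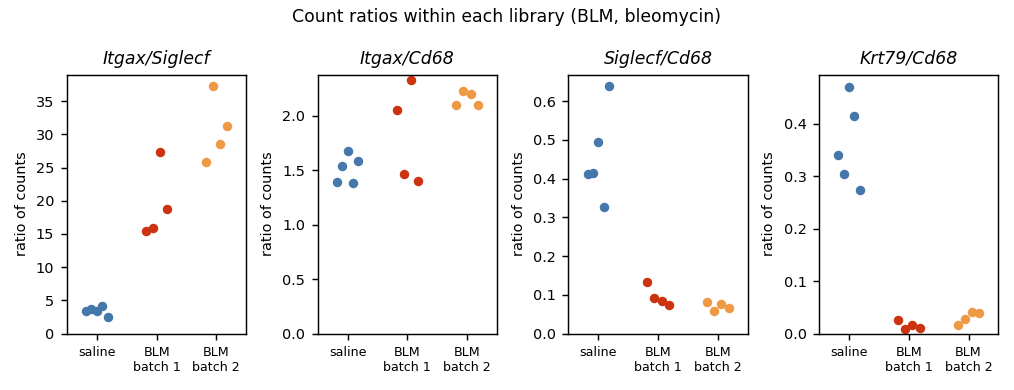
Ratios of raw counts within each library for 4 gene pairs, by group (BLM, bleomycin); each point is a library. Itgax per Siglecf is 2.47 to 4.23 in saline and 15.4 to 37.2 in bleomycin, and Siglecf and Krt79 per Cd68 are lower in all 8 bleomycin libraries, while Itgax per Cd68 overlaps between saline and batch 1.

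Itgax moved beside most of the listed genes of monocyte-derived and dendritic cells. In the list of monocyte and interstitial macrophage genes 14 of 20 rose (median log2 change 1.79), such as Ms4a7, a membrane protein of macrophages (3.09, SE 0.19), the fractalkine receptor Cx3cr1 (2.32, SE 0.19) and the complement chain C1qc (11.7 to 76.1 CPM on average). Their summed level was 1783 to 2223 CPM in saline, 2317 to 2708 in batch 1 and 2857 to 3278 in batch 2 bleomycin. The most abundant member, the lysozyme gene Lyz2, was at 1434 CPM in saline and 1463 CPM in batch 1 bleomycin (0.03, SE 0.12, adjusted p = 0.888). Ly6c2 (0.47, SE 0.26), Folr2 (0.43, SE 0.47), Cd163 (0.35, SE 0.41), Mertk (-0.21, SE 0.12) and Lyve1 (-0.46, SE 0.25) did not pass either. In batch 2 Lyz2 was at 2112 CPM, above every batch 1 bleomycin library (0.53, SE 0.13, adjusted p = 0.0535), and over the whole list the median difference between batches was -0.18. In the dendritic cell list 10 of 12 rose (median 2.26), among them Irf8, a transcription factor of these cells (1.34, SE 0.10), Fscn1, an actin-bundling protein of mature dendritic cells (2.88, SE 0.22), and Itgae, the CD103 integrin chain (2.71, SE 0.24). Of the same list Zbtb46 (-0.01, SE 0.13) and Cd209a (0.43, SE 0.36) did not pass. The dendritic cell list summed to 97.0 to 108 CPM in saline, 227 to 322 in batch 1 and 226 to 259 in batch 2. Counts of Itgax per count of Flt3, a receptor of dendritic cells, were 10.6 ± 4.21 in saline, 7.34 ± 0.94 in batch 1 and 10.5 ± 2.18 in batch 2, with overlapping ranges. The part of either cell type in the Itgax change was not tested.

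The signals upstream of the resident programme were followed with 20 genes of GM-CSF, M-CSF and TGF-β signalling and their transcription factors. The list also holds Car4, a carbonic anhydrase that is counted in the capillary endothelium list too. Of the 20 genes 11 rose and 3 fell (median 0.62), the latter Csf2, Bhlhe41 and Car4 (-1.39, SE 0.19). Among the ligands Csf2, which encodes GM-CSF, was low and fell from 1.68 ± 0.61 to 0.66 ± 0.51 CPM (-1.34, SE 0.48, adjusted p = 0.0432), but it stood at 1.81 ± 0.21 CPM in batch 2. Tgfb1 rose by 0.83 (SE 0.12). The GM-CSF receptor chains rose, Csf2ra from 17.4 ± 1.94 to 53.8 ± 9.34 CPM (1.63, SE 0.15), Csf2rb by 2.05 (SE 0.24) and its paralogue Csf2rb2 by 2.74 (SE 0.27). The TGF-β receptor Tgfbr2 rose by 0.85 (SE 0.12). Among the transcription factors Spi1, which encodes PU.1, rose by 1.59 (SE 0.19), and Rxra, the partner of PPARγ, was at 74.7 and 68.4 CPM (-0.13, SE 0.10, adjusted p = 0.381). Bhlhe41, a repressor with a part in alveolar macrophage self-renewal that other lung cells express too, fell from 55.2 ± 6.87 to 22.7 ± 0.79 CPM (-1.28, SE 0.11, adjusted p = 1.68e-06). Batch 2 bleomycin held more of it, 40.3 ± 5.28 CPM, and differed from batch 1 by 0.83 (SE 0.12, adjusted p = 0.00261). Bhlhe40, in the same list, went the other way, from 94.6 ± 13.1 to 160 ± 48.6 CPM (0.76, SE 0.18, adjusted p = 0.00604).

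Of 22 other genes used for alveolar macrophages, 9 rose and 2 fell (median 0.55), and the 2 that fell were Bhlhe41 and Ear1. Among all tested genes 17.5% were called higher and 13.4% lower. Siglec1, the sialoadhesin of several macrophage types, rose from 11.5 ± 3.03 to 50.9 ± 15.0 CPM (2.13, SE 0.22), and the chemokine Ccl6 rose by 1.33 (SE 0.18). The mannose receptor Mrc1, also carried by interstitial macrophages, rose by 1.22 (SE 0.26). The chitinase-like Chil3, one of the most abundant transcripts of resident cells, was at 69.8 and 63.8 CPM (-0.13, SE 0.40, adjusted p = 0.835). Among 19 genes of lipid uptake, storage and export 10 rose (median 0.36). They included the scavenger receptors Msr1 (3.34 ± 1.04 to 34.3 ± 14.6 CPM) and Scarb1 (1.11, SE 0.12) and the lysosomal lipase Lipa (0.85, SE 0.12), a different direction from that of Cd36 and Fabp1.

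**Figure D5:**
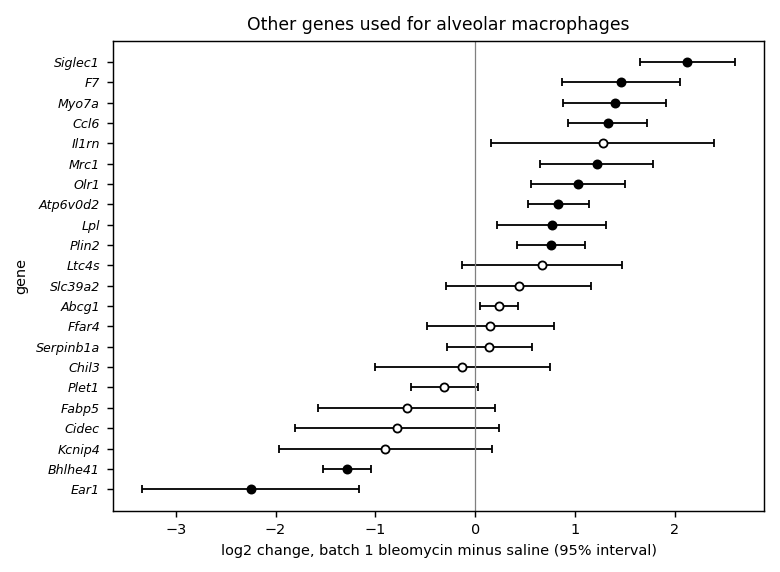
Log2 change, batch 1 bleomycin minus saline, with 95% interval, for the 22 other genes used for alveolar macrophages; filled circles passed at an adjusted p under 0.05. Filled circles above 0 number 9, and the 2 below 0 are Bhlhe41 and Ear1.

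Remaining marker lists give the other cells that express members, beside shares of 17.5% called higher and 13.4% called lower among all tested genes. In the lipofibroblast list, cells that express Pparg, 5 of 8 genes fell and 1 rose (median -0.62), with the methyltransferase Inmt at -2.53 (SE 0.37). In the alveolar type 2 list 5 of 10 fell (median -0.67), with the surfactant gene Sftpc at -1.31 (SE 0.29). With a library left out 3 to 7 fell. The count was 3 when bleomycin replicate 6, 7 or 8 or saline replicate 3 was left out alone. DESeq2 and limma-voom each called 6. Batch 2 bleomycin lay above batch 1 in the median of that list (0.53), with 0 of 10 genes called by edgeR or limma-voom, 3 by DESeq2 and 5 at an unadjusted p under 0.05 in edgeR. Sftpc was at 3501 CPM in saline, 1410 in batch 1 and 2919 in batch 2 bleomycin (1.05 between batches, SE 0.30, adjusted p = 0.116), and the list summed to 6992 to 9066, 3103 to 5984 and 3955 to 9539 CPM. In the platelet list, cells that carry CD36, 1 of 7 rose, the integrin chain Itgb3 (0.80, SE 0.14), which other cells express as well, while Pf4 was at 7.31 ± 0.77 CPM in saline (SD, n = 5) and 7.85 ± 4.68 CPM in batch 1 bleomycin (n = 4). The part of these cells in the levels of Pparg and Cd36 was not tested.

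The genes with the most similar profile over the 13 libraries were found by the root mean square difference of centred log2 CPM among 13575 genes. For Itgax, whose profile had an SD of 1.09 on the log2 scale, they were Itgb2, the β2 integrin chain, and Mpeg1, a pore-forming protein of macrophages, at 0.18 and 0.20. For Fabp4 (SD 1.06) they were Ebf2, a transcription factor of the fat lineage, and Acacb, an acetyl-CoA carboxylase, at 0.30 and 0.34. For Krt79 (SD 1.26) they were the transcription factor Hlf and the prostaglandin-degrading enzyme Hpgd, at 0.41 and 0.43. The nearest to Marco (SD 1.07) was Kifc5b at 0.63, and the nearest to Fabp1 (SD 2.01) was Mettl7a2 at 0.96. Siglecf, Pparg, Ear2 and Cd36 varied less (SD 0.51, 0.40, 0.42 and 0.26), with Igf2bp2, Zfand2b, Arf2 and Tle5 nearest at 0.27, 0.21, 0.19 and 0.09. These distances describe the libraries and carry no test.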

How the data were processed

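The authors deposited whole-number counts per gene symbol, without normalization. The submitters' processing notes name cutadapt 4.4, STAR 2.7.10b, featureCounts 2.0.3, DESeq2 1.42.1 and build mm39. The sources used here do not give their roles, the strand setting or the annotation release. Of the counts between 1 and 10, 78.4% to 86.1% per library were even, so counts may be of reads in pairs, not of independent molecules. The deposited normalized table was not used.

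Counts were filtered with filterByExpr over the 3 groups (20468 genes kept), scaled by TMM and tested in edgeR 4.0.16 (R 4.3.3) by robust quasi-likelihood fits with batch and treatment terms over all 13 libraries. Adjusted p-values are Benjamini-Hochberg over all tested genes. SE is the log2 change divided by the root of F. Exon lengths came from GENCODE M21. Tests were checked on simulated independent counts with the same spread for every gene, a simpler setting than these data.

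The 9 genes, the 13 other lists (162 symbols together with the 9) and the tests were chosen with earlier results of these data known. Genes named beyond the 9 were the 2 nearest by profile, up to 3 per list by lowest p and the 2 most abundant of lists for other cells. Further genes (Cdh5, Tgfb1, Tgfbr2, Csf2, Csf2rb, Csf2rb2, Spi1, Rxra, Cd68, Flt3, Chil3, Mrc1, Ear1 and others) were named for their role, after their values were seen. Alternatives were RLE size factors, no filter, DESeq2 1.42.0, limma-voom 3.58.1, batch 1 only, no batch term, a replicate block, replicate 8 placed with saline and each library left out. Except with no filter, the genes kept by the filter were held fixed. No 2 libraries of a treatment were duplicates (over genes with 10 or more counts in the pair, chi-square per degree of freedom 9.18 to 235 over 38 pairs).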

Additional observations from a re-analysis of the deposited data

Results flagged for a closer look

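Within 26 groups of 4 or 5 libraries, 2 held a library far from the others by Dixon's criterion at 95%, which chance reaches in about 1 of 20 groups. Marco was at 30.3 CPM in batch 1 bleomycin replicate 8, where the next highest library of that group held 4.33 CPM. Itgax was at 129 CPM in batch 2 bleomycin replicate 1, where the next highest held 91.5 CPM.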

How the results depend on the processing

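The changes of Itgax, Krt79 and Fabp1 kept their direction and their side of the threshold under 7 of 8, 8 of 8 and 7 of 8 alternatives and with each of 13 libraries left out (1.84 to 2.07, -3.11 to -2.75 and -4.06 to -2.79). The exception was bleomycin replicate 8 placed with saline, as its title says. It left 405 genes higher and 265 lower in all (3586 and 2733 otherwise), 0 members higher, 1 lower (Krt79, -2.62) and 0 of the 22 other alveolar macrophage genes higher, with Itgax at 1.48 (adjusted p = 0.0647), Fabp1 at -2.82 (0.141), Cd36 at -0.16 (0.524) and Marco at -1.37 (0.271). Cd36 did not pass with no filter (-0.28), in batch 1 only (-0.36) or with the replicate block (-0.34), and ranged from -0.46 to -0.28 with a library left out. Without the batch term 2 members were higher, Siglecf passed at -0.72 and Ear2 at 0.54; with the replicate block in place of the batch term, Siglecf passed at -0.85 (adjusted p = 0.0381). With a library left out 1 to 2 members were higher, Siglecf ranged from -0.71 to -0.45, Ear2 from 0.27 to 0.56 and Marco from -0.65 to 1.09. Between batches, left-out libraries turned the sign of Marco (-0.49 to 1.72), Fabp4 (-0.76 to 0.051), Pparg (-0.13 to 0.14, and 0.0088 by limma-voom) and Cd36 (-0.20 to 0.024), none of them called. The causes were not tested. Among the other lists, a left-out library changed 0 called genes to 1 lower hepatocyte (without bleomycin 5), 1 lower monocyte (without bleomycin 8), 1 lower keratinocyte (without saline 2) or 2 lower platelet genes (without bleomycin 5). The labels do not state that replicate numbers pair the libraries. Deviations of same-numbered batch 2 bleomycin and saline libraries (numbers 1 to 4) correlated at -0.35 to -0.06. So few pairs cannot exclude a pairing, and number 5 was not checked. Depth limits Fabp1 and Krt79, with at most 14 and 22 counts in a bleomycin library.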

Other observations

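Among batch 1 bleomycin libraries, replicate 5 lay nearest to the saline mean for each of the 4 called genes. It had the highest Krt79 (0.91 CPM), Fabp1 (0.58 CPM) and Cd36 (464 CPM) and the lowest Itgax (71.1 CPM) of the 4, and its Cd68 level was the lowest of all 8 bleomycin libraries (34.7 CPM, against 41.0 to 61.4 CPM).

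Genes of cornified squamous epithelium were present in some sections and at 0 in others. Lor, which encodes the cornified envelope protein loricrin, was counted 2110, 0, 757, 3695 and 2206 times in saline replicates 1 to 5, 0, 224, 276 and 988 times in batch 1 bleomycin replicates 5 to 8, and 0, 773, 0 and 0 times in batch 2 replicates 1 to 4. The keratin Krt78 was at 0 counts in saline replicate 2 and in batch 2 replicates 1 and 3, 3 of the 5 libraries in which Lor was at 0.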
